A study of Salmo salar with 12 samples.

Results

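The hepatic response of juvenile Atlantic salmon (Salmo salar) to the highest of 3 waterborne depleted uranium (DU) concentrations, 1.0 mg/L, was examined against unexposed fish. The 6 arrays that carried these groups, 3 from the high exposure and 3 from the control, were taken by their sample titles from the 12 arrays of the series. The other 6 arrays, 3 from fish held at 0.25 mg/L (low) and 3 from fish held at 0.5 mg/L (medium), served to show what was kept, weaker or lost at the high concentration. All fish were unfed parr, acclimated to lake water and then held in the dark for 48 h in a static, aerated system. DU was given as dissolved uranyl acetate dihydrate, and the control water received none of it, so the acetate ion was part of every exposure and of no control. Liver total RNA was labelled with a single dye (Cy3) and hybridised to a custom salmonid oligonucleotide array built from salmon and rainbow trout transcript assemblies. The labels and methods gave 3 RNA samples per group and described no replicate exposure tanks, so p-values measure the spread between these samples only, and a tank effect cannot be told apart from the exposure.

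Uranium in oxygenated water is present mainly as the uranyl ion and its complexes, DU is studied for chemical more than radiological toxicity, and mitochondria and redox balance are among its known targets. The liver is the main site of intermediary metabolism, bile formation and plasma protein synthesis, and its conjugating enzymes make foreign and endogenous compounds water soluble for export. Hepatocytes make up most of the organ, with red blood cells, macrophages and vessel wall cells as the usual minor sources of RNA.

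Throughout, a level is the log2 of the scanner's processed intensity minus the 75th percentile of the same array, so a level of 0 is the brightness of that percentile. A probe was called when limma gave a two-sided Benjamini-Hochberg adjusted p below 0.05 and a change of at least 1.5-fold in a fit over all 12 arrays. Of 55468 salmonid probes, 29456 passed the filter on dim probes and were tested. The 75th percentile itself was 55.7 to 73.8 intensity units on the control arrays and 68.8 to 94.7 on the high arrays, against 113 to 138 at low and 122 to 154 at medium. Between 45.0% and 49.3% of probes were well above background on the control arrays and between 45.7% and 49.2% on the high arrays. The share was 49.0% to 55.1% at low and 54.6% to 61.5% at medium. The lowest level well above background was -2.76 to -2.24 on control and -2.89 to -2.48 on high arrays. It was -3.33 to -2.84 at low and -3.75 to -3.38 at medium. Probes near background were thus not measured on equal terms across doses, and the part of this in what was kept or lost at high was not tested. No spot was saturated. Of the hepatocyte markers looked for, F9 and G6PC had named probes, well above background on all 6 arrays, no probe tested was named for a pancreas marker, and red blood cell, muscle and macrophage markers were 1 probe each. Names existed only for probes that the study had listed as changed, so a missing or single marker does not show which tissues were present.

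At 1.0 mg/L, 1093 probes were called against control, 761 higher and 332 lower, which is 3.71% of the probes tested, 2.58% higher and 1.13% lower. Higher levels thus made up 69.6% of the calls. The median change of the probes called higher was 1.21 on the log2 scale, 548 of them rose at least 2-fold and 73 at least 4-fold. The median size of the decreases was 1.11, with 204 at least 2-fold and 42 at least 4-fold. Over all probes tested the median change was 0.01 and the median size of change 0.34. On the spots kept after removal of outliers, the high arrays lay wholly above or below the control arrays for all 1093. They did so for 14.4% (above) and 11.8% (below) of all probes tested. The arrays came from 3 slides, each with 1 array of every group. A separation of the groups fixes the sign within each slide, so agreement within all 3 slides for 1092 of the 1093 adds no evidence. The exception, CUST_2722, lacked its spot on control replicate 3. Mean sizes of change were 1.46, 1.30 and 1.19 on slides 1, 2 and 3.

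Both the number of calls and the share called higher changed with the settings. With slide as a block 2036 probes were called, 1082 of them among the 1093, and 62.7% were higher. A fit on the control and high arrays alone called 1 probe, which was lower at high and not among the 1093. Leaving out 1 array gave 370 calls without control replicate 1, 447 without control replicate 2, 1780 without control replicate 3, 657 without low replicate 3, and 650, 162 and 230 without high replicates 1, 2 and 3. Scaling to the spike-in probes in place of the 75th percentile shifted the median of all probes at high against control by 0.24, and 89.4% of its 808 calls were higher. Background correction by normexp gave 86.6% of 980 calls higher.

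The high dose called fewer probes than either lower dose. Medium called 3411 probes (11.6% of those tested), 1968 higher (6.68%) and 1443 lower (4.9%), and low called 1834 (6.23%), 1183 higher (4.02%) and 651 lower (2.21%), with the same 3 control arrays in each comparison. Before adjustment the doses lay closer, with 6406, 8081 and 7142 probes at an unadjusted limma p below 0.05 at high, medium and low. The median size of change over all probes tested was 0.34, 0.38 and 0.37 in the same order. Of the 1093 probes called at high, 949 (86.8%) were also called at medium and 819 (74.9%) at low, and where 2 doses called the same probe they gave it the same sign. All 3 doses called 794 probes, 603 higher and 191 lower. Only medium and high shared 155, only low and high shared 25, and 119 were called at high alone, 44 higher and 75 lower. A further 860 were called at both lower doses and not at high.

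Among the 794 kept probes the median change, signed by the direction of the call, was 1.27 at low, 1.43 at medium and 1.24 at high. The change at high was smaller than at medium for 582 of them. It was largest at medium for 498, at high for 167 and at low for 129. Of the 1654 probes called at both lower doses, 48.0% were kept at high. This was 56.9% of the 1060 that rose and 32.2% of the 594 that fell, and the difference between these shares was not tested.

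Most lost probes kept their sign. Of the 860, 856 changed in the same direction at high, 704 had non-overlapping control and high arrays, and 748 had an unadjusted limma p below 0.05 at high. Their median signed change was 1.06 at low, 1.16 at medium and 0.73 at high, and 225 of them fell short of 1.5-fold. All 860 missed the limma adjusted p of 0.05 at high, and 443 had one below 0.1. Since a missed call at high defined these probes, their values at high are a description. The 119 probes called at high alone had medians of 0.57, 0.56 and 1.06 at low, medium and high, and 115 moved in the same direction at both lower doses. That count is likewise partly fixed by the shared control arrays.

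**Figure D1:**
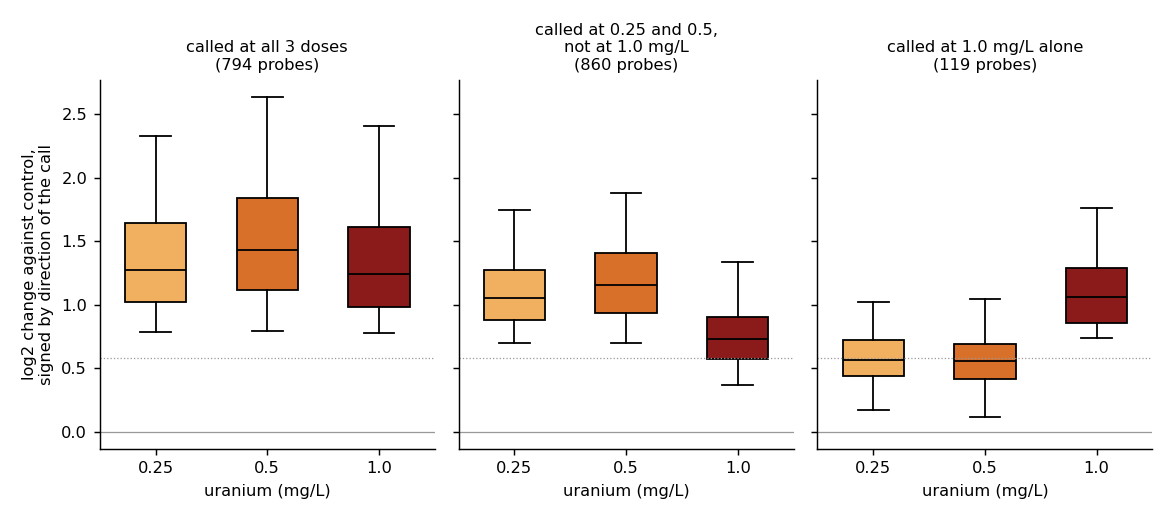
Log2 change against control at low (0.25 mg/L), medium (0.5 mg/L) and high (1.0 mg/L) exposure, signed by the direction of the call, for the 794 probes called at all 3 doses, the 860 called at 0.25 and 0.5 but not at 1.0 mg/L, and the 119 called at 1.0 mg/L alone. Boxes show the quartiles and median, whiskers the 5th to 95th percentiles, and the dotted line 1.5-fold. The lost probes sit lower at 1.0 mg/L but mostly above 0.

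The direct contrasts gave no called probe. High against medium had 0 calls by limma (smallest adjusted p 0.38, two-sided, Benjamini-Hochberg), with 1930 probes at an unadjusted p below 0.05, 727 higher and 1203 lower at high. High against low had 0 calls (smallest adjusted p 0.583), with 1423 probes at an unadjusted p below 0.05. The methods' one-way test with a Tukey step called 125 and 60 probes in these contrasts. With the settings used here, limma thus did not show that a probe called at medium and not at high differed between these doses. Scaled to the spike-in probes, the high against medium contrast called 12876 probes (12874 lower at high). Without the filter on dim probes it called 6136, but 5939 of these were higher and 197 lower at high.

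The values can also be given array by array. The probes summarised were those called at low, chosen with the low arrays against the same control arrays, so the values describe the arrays and nothing is read from the place of the high arrays relative to the low or control ones. Over the 1183 probes called higher at low, the array mean of the change from the control mean was 0.94, 1.15 and 1.20 on high replicates 1, 2 and 3. The medium arrays stood at 1.16, 1.44 and 1.39, the low arrays at 1.28, 1.29 and 1.24, and the control arrays at 0.01, -0.18 and 0.17. The high and medium arrays entered that choice through the shared control arrays, the spread of the fit and the filter on dim probes. Their ranges overlapped, but on each slide the high array stood below the medium array. The values were 1.15 against 1.44 on slide 1, 0.94 against 1.16 on slide 2 and 1.20 against 1.39 on slide 3. This difference was not tested. Over the 651 probes called lower at low, the high arrays stood at -0.72, -0.99 and -0.96 and the low arrays at -1.09 to -1.27. The medium arrays stood at -1.13, -1.39 and -1.25. In this set the high and medium arrays did not overlap, a difference that was not tested.

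**Figure D2:**
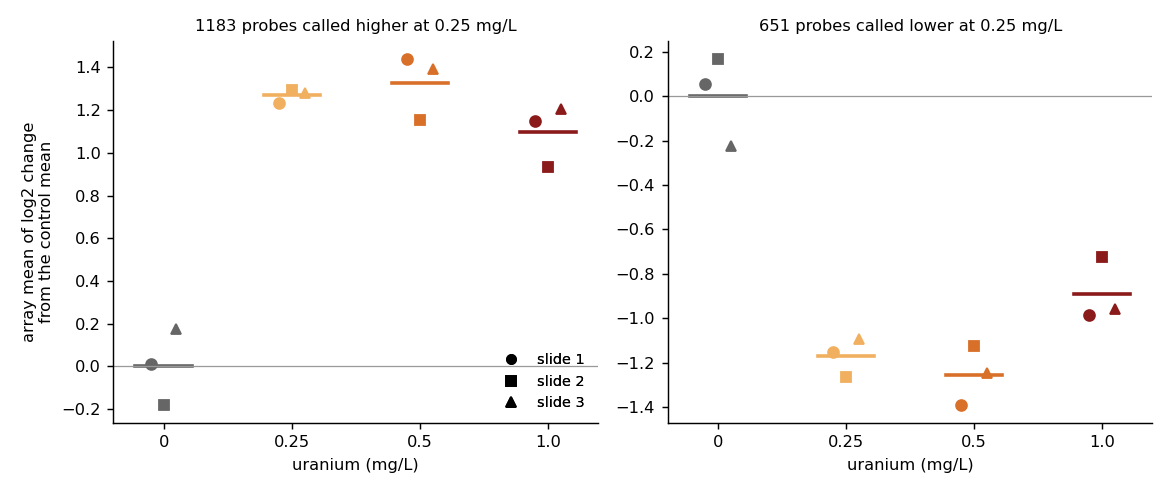
Mean change from the control mean on each of the 12 arrays (log2), over the 1183 probes called higher and the 651 called lower at 0.25 mg/L, by uranium concentration, with bars at group means and symbols for the 3 slides. The probes were chosen on the 0.25 mg/L and control arrays, with the spread of all 12 arrays in the fit. The separation of the 0.25 mg/L and control arrays is fixed by this choice. On the left panel the 1.0 mg/L arrays (0.94 to 1.20) overlap the 0.5 mg/L arrays (1.16 to 1.44), but lie below them within each slide. On the right panel the 1.0 mg/L arrays (-0.72 to -0.99) do not overlap the 0.5 mg/L arrays (-1.13 to -1.39).

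Gene names could be attached to 807 tested probes, and only to probes that the study itself had listed as changed in these arrays. Of these 807, 555 (68.8%) were called at high, 431 higher and 124 lower, so that share and the direction of a list below are not independent evidence. The median change of all named probes was 0.87 at low, 0.93 at medium and 0.79 at high, and the gene lists that follow are to be read against these medians. List medians are given in the order low, medium and high. Symbols followed the annotation of the array, and a few did not match their description. Of the 1093 calls, 538 had no name. Several probes of 1 gene may measure duplicated salmonid copies, which the array could not separate.

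**Figure D3:**
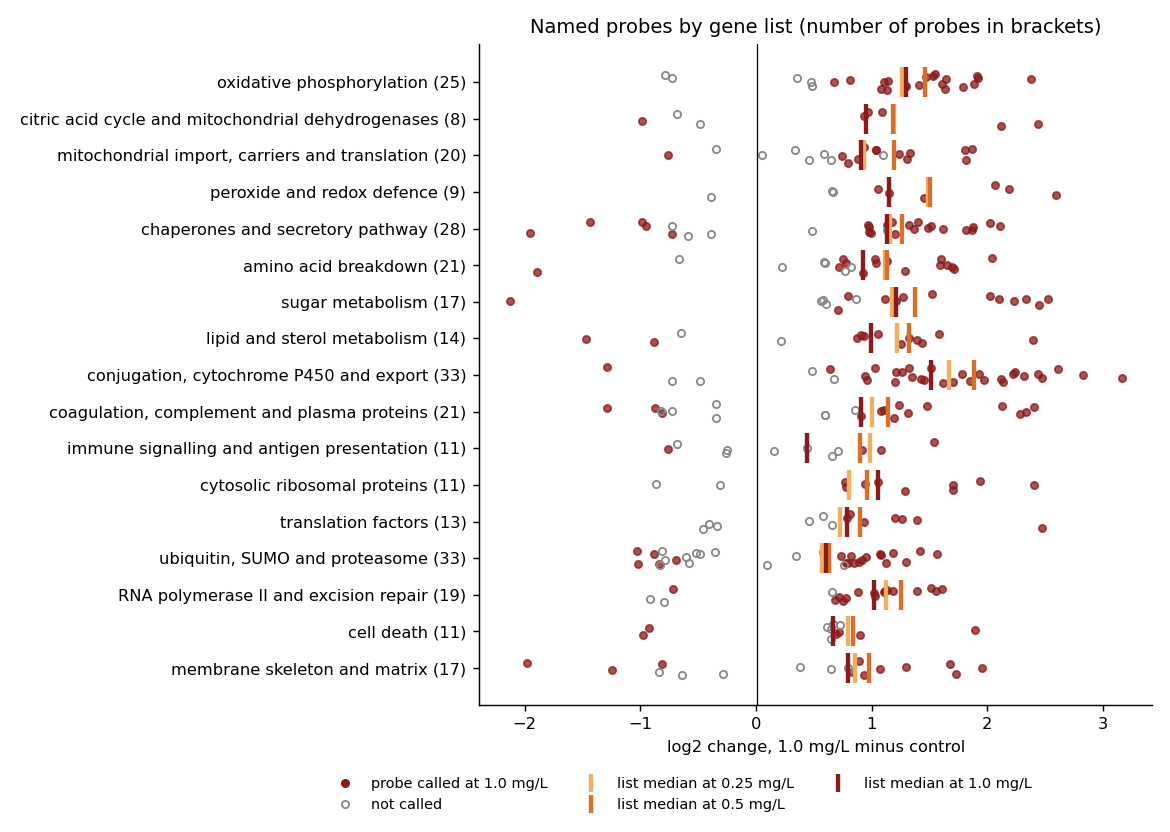
Log2 change at 1.0 mg/L against control of every named probe in 17 gene lists, filled where called and open where not, with vertical ticks at each list's median at low, medium and high. In most lists the 0.5 mg/L tick lies furthest right, and the conjugation list has the largest median at each concentration.

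Conjugating enzymes had the largest median change of the 17 lists. Of 33 probes for conjugation, cytochrome P450 oxidation and export, 28 rose, 1 fell and 4 were not called, and the list medians were 1.67, 1.88 and 1.51 at low, medium and high. All 12 probes for UDP-glucuronosyltransferases, which attach glucuronic acid to bilirubin, steroids and foreign compounds, were called higher, with medians of fitted changes of 2.17, 2.54 and 2.23. For 2 of the 12, a UGT1 and a UGT2A1 probe, no control array was well above background, so that only a lower bound of the fold is known. Another UGT1 probe had levels of 1.13, 0.72 and 1.93 on control replicates 1, 2 and 3, and of 3.77, 4.70 and 4.80 on high replicates 1, 2 and 3. The groups did not overlap, and the change was 3.16 (SE 0.34, limma adjusted p = 0.00338), or 8.96-fold. It remained called with any 1 of the 12 arrays left out. A second family 1 probe, CUST_45461, had control levels of 2.30, 1.84 and 2.78 and high levels of 4.20, 5.50 and 5.07 (change 2.61, SE 0.37, adjusted p = 0.00864). The UGT2A1 probe that no control array showed well above background was so on every high array, at least 2.85-fold higher (adjusted p = 0.0124), and the UGT1 probe of this kind was at least 1.45-fold higher. Here and below, an adjusted p beside a lower bound belongs to the fitted change and does not test the bound. Such a probe passed the filter only through groups in which it was well above background, so its call is not independent of the filter. DHRS9, a retinol and steroid dehydrogenase, had control levels of -1.06, -1.45 and -0.61 and high levels of 1.38, 1.27 and 1.64, a change of 2.47 (SE 0.30, adjusted p = 0.00405).

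Of 8 cytochrome P450 probes, 6 rose, among them CYP2U1 (1.97) and CYP39A1 (1.42), an oxysterol hydroxylase of bile acid synthesis. CYP19A1, the aromatase that makes oestrogens, was called lower at low (-1.28) and medium (-1.60) and was not called at high, where its change was -0.73 (adjusted p = 0.0817). A P450 probe without a symbol was not called either (change 0.48), and neither were the organic anion uptake carriers SLCO1C1 (0.67) and SLCO1B3 (-0.48). The canalicular export pump ABCC2, which carries glucuronides into bile, was measured by 2 probes that disagreed. One fell from control levels of 3.48, 3.54 and 3.34 to 2.15, 2.20 and 2.15 (change -1.29, SE 0.18, adjusted p = 0.00712), and the other rose by 1.62 (adjusted p = 0.00629). Disagreement of this kind was seen in 3 of the 35 genes with several called probes, the others being MSL1 (0.93 and -1.17) and UBR4 (1.30 and -1.03).

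Redox enzymes of the cytosol and mitochondrion followed. Of 9 probes, 6 rose, none fell and 3 were not called, with medians of 1.48, 1.504 and 1.15. Quinone reductase NQO1 had control levels of -2.66, -2.39 and -2.41, of which 1 array was well above background, and high levels of -0.69, 0.06 and -0.26 (change 2.19, SE 0.25, adjusted p = 0.00377). Carbonyl reductase CBR1 was not well above background on any control array and rose at least 2.68-fold (adjusted p = 0.0116), a call that ended without high replicate 2. Peroxiredoxin PRDX2, which reduces hydrogen peroxide in the cytosol, had control levels of -1.70, -1.85 and -0.75 and high levels of 0.35, 0.93 and 0.64 (change 2.07, SE 0.30, adjusted p = 0.00867). Its mitochondrial relative PRDX3 rose by 1.45 (SE 0.25, adjusted p = 0.0145) and was not called without high replicate 2 or 3. GLRX5, a glutaredoxin of iron-sulfur cluster assembly, rose by 1.05 and the selenoprotein SELS by 1.15. The selenium carrier selenoprotein P was not called on either probe (SEPP1A -0.39, SEPP1B 0.65), nor was mitochondrial thioredoxin TXN2 (0.67, adjusted p = 0.0551).

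Respiratory chain transcripts mostly rose. Of 25 oxidative phosphorylation probes, 20 rose, none fell and 5 were not called, with medians of 1.26, 1.46 and 1.29. By complex, 3 of 4 probes for complex I, 5 of 5 for complex II, 2 of 2 for complex III, 8 of 11 for complex IV and 1 of 2 for ATP synthase rose. SDHA, the flavoprotein of complex II that oxidises succinate, was not well above background on any control array and rose at least 2.56-fold (adjusted p = 0.00867). COX15, which makes the haem of complex IV, rose from -0.61, -0.63 and 0.35 to 1.41, 1.84 and 1.59 (change 1.91, SE 0.26, adjusted p = 0.00681). COX7A2L, a cytochrome c oxidase subunit VIIa-related protein, went from 0.74, 0.52 and 1.42 to 2.75, 2.77 and 2.82 (change 1.88, SE 0.22, adjusted p = 0.00403). These 3 remained called with any 1 array left out.

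The 5 respiratory probes not called at high included the pair that were called lower at both lower doses. NDUFS6, an accessory subunit of complex I, changed by -1.52 at low, -1.77 at medium and -0.72 at high (adjusted p = 0.0938), and MT-CO3, a subunit of complex IV encoded by mitochondrial DNA, by -1.38, -1.52 and -0.79 (adjusted p = 0.0956). The others were the COX11 probe (0.35), the assembly factor SURF1 (0.49) and ATP5B, the catalytic beta subunit of ATP synthase (0.47, adjusted p = 0.143). Of 8 probes for the citric acid cycle and related dehydrogenases, 5 rose, 1 fell and 2 were not called. Malic enzyme ME3, which makes NADPH, went from 1.63, 0.80 and 2.58 to 3.74, 4.25 and 4.33 (change 2.44, SE 0.39, adjusted p = 0.0125), and was not called without high replicate 2 or 3. Fumarate hydratase FH rose by 1.09, DLD by 0.93 and IDH1, the cytosolic isocitrate dehydrogenase, by 0.97, and DHODH was called higher with 1 high array and no control array well above background. NNT, the transhydrogenase that makes NADPH across the inner membrane, was the member that fell, from 3.33, 3.55 and 3.55 to 2.56, 2.43 and 2.49 (change -0.99, SE 0.15, adjusted p = 0.00981), and was not called without high replicate 2. DLST (-0.48) and GPD2 (-0.68) were not called.

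Import, carrier and mitochondrial ribosome probes numbered 20, of which 12 rose, 1 fell and 7 were not called (medians 0.93, 1.19 and 0.91). CUST_36681, described as a protein of the large mitochondrial ribosomal subunit, had control levels of -2.23, -1.97 and -1.87, of which 1 array was well above background, and high levels of -0.34, -0.03 and -0.30 (change 1.80, SE 0.23, adjusted p = 0.00557). The member that fell was SLC25A36, a mitochondrial pyrimidine nucleotide carrier, at 3.47, 3.41 and 3.77 on control arrays and 2.63, 2.83 and 2.89 on high arrays (change -0.76, SE 0.18, adjusted p = 0.0415). It was called at neither lower dose (-0.61 and -0.48), and leaving out any 1 array other than medium replicate 3 ended the call.

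Of 17 probes for sugar metabolism, 12 rose, 1 fell and 4 were not called (medians 1.17, 1.37 and 1.21). GAPDH, the glyceraldehyde phosphate dehydrogenase of glycolysis, went from 4.11, 3.52 and 4.96 to 6.36, 6.87 and 6.93 (change 2.52, SE 0.32, adjusted p = 0.00538). The lowest high array lay above the highest control array. Triosephosphate isomerase TPI1 rose by 2.33 and UGP2, which makes the UDP-glucose used for glycogen and glucuronic acid, by 2.23. These 3 calls remained with any 1 array left out. A probe described as aldolase C was well above background on every control array and on no high array and was at least 1.42-fold lower (adjusted p = 0.0299), a call that ended without control replicate 1 or 2 or high replicate 2 or 3.

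The probe with symbol PYGM, described as liver glycogen phosphorylase, the enzyme that releases glucose from glycogen, was 1 of the 5 named probes whose change at high exceeded both lower doses by most. It stood at 2.38, 2.12 and 2.39 on control arrays and 3.61, 3.68 and 3.43 on high arrays (change 1.28, SE 0.15, adjusted p = 0.00405), against 0.81 at low and 0.79 at medium. The 3 high arrays lay above all low arrays (3.03 to 3.17) and all medium arrays (3.04 to 3.20), but the difference from medium was 0.48 (limma adjusted p = 0.695). The excess at high was the reason for naming this probe, so the place of its high arrays is a description. Glucose-6-phosphatase G6PC, which frees glucose for export, changed by 0.95 at low, 0.69 at medium and 1.21 at high (adjusted p = 0.015 at high) and was not called at medium. SLC16A1, a lactate and pyruvate carrier, changed by 1.06, 1.18 and 1.66.

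**Figure D4:**
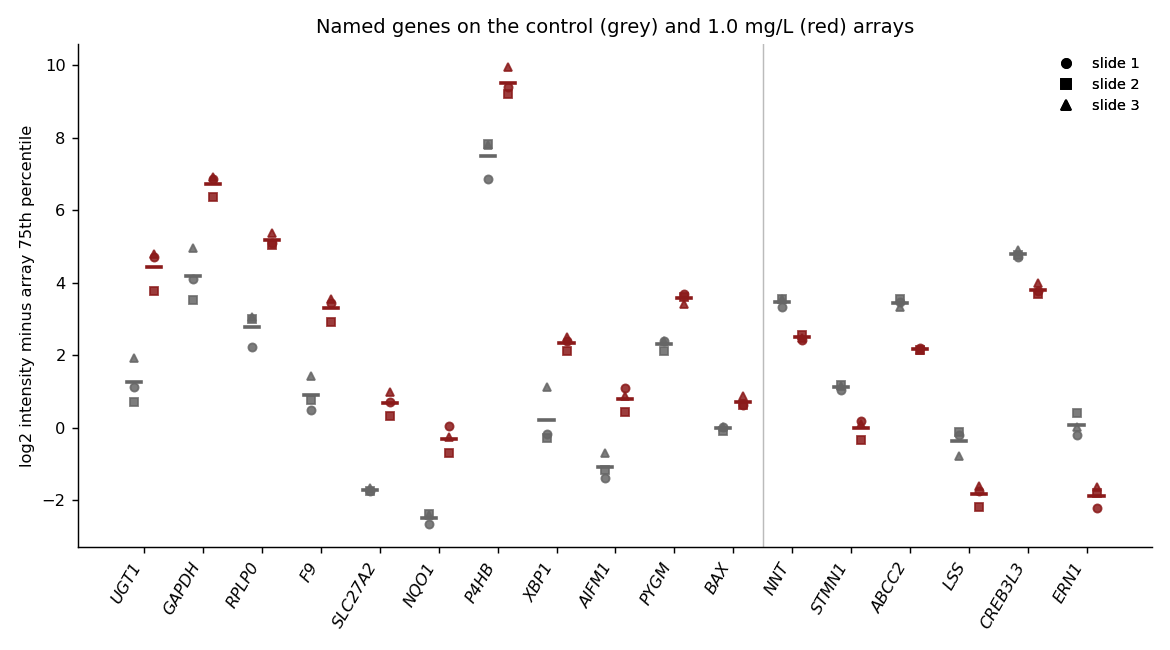
Levels of 17 named genes (log2 intensity minus the 75th percentile of the array) on the 3 control arrays (grey) and the 3 arrays at 1.0 mg/L (red), with bars at group means and symbols for the slides. Genes called higher stand left of the line and genes called lower right of it, ABCC2 being its falling probe, and the 2 groups are separate in each.

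Amino acid breakdown had 14 of 21 probes higher, 1 lower and 6 not called (medians 1.12, 1.13 and 0.93). PIPOX, which oxidises pipecolate and sarcosine, went from -2.24, -1.93 and -1.04 to -0.03, 0.23 and 0.71 (change 2.04, SE 0.33, adjusted p = 0.0125). GCH1, the first enzyme of tetrahydrobiopterin synthesis, rose by 1.71 (adjusted p = 0.0044) and AGMAT by 1.70 (adjusted p = 0.00867). The member that fell was monoamine oxidase, MAO, with control levels of -1.62, -1.42 and -1.98 and no high array well above background, at least 2.06-fold lower (adjusted p = 0.0149). It was called lower at low (-2.03) and not at medium (-1.05). Its mean level at low lay below the lowest level well above background there. The size of that change, and its difference from medium, were thus not measured. The call at high ended without control replicate 1 or 2 or high replicate 2 or 3.

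Of 14 lipid and sterol probes, 10 rose, 2 fell and 2 were not called (medians 1.22, 1.32 and 0.99). SLC27A2, which activates very long chain fatty acids, went from -1.74, -1.74 and -1.66 to 0.32, 0.72 and 1.00 (change 2.39, SE 0.27, adjusted p = 0.00377), and LCAT, the plasma enzyme that esterifies cholesterol, rose by 1.43 (adjusted p = 0.012). Both members that fell belong to cholesterol synthesis. Lanosterol synthase LSS went from -0.20, -0.12 and -0.76 to -2.17, -1.73 and -1.59 (change -1.47, SE 0.27, adjusted p = 0.0203), with -1.55 at medium and -0.43 at low, where it was not called. HMGCS1, the synthase upstream of the rate-limiting reductase, changed by -0.88 at high (adjusted p = 0.0342), -1.51 at medium and -1.26 at low. LSS was not called without control replicate 1 or 2 or any 1 high array, and HMGCS1 lost its call in 8 of the 12 fits that left out 1 array. Carnitine palmitoyltransferase CPT1A, the entry step of mitochondrial fat oxidation, was measured by 2 probes that disagreed, 1 called higher (1.40, adjusted p = 0.0155) and 1 not called (-0.65, adjusted p = 0.0589). AACS, which activates acetoacetate, was called at low alone (1.17, against 0.11 at medium and 0.21 at high).

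In the secretory pathway, 18 of 28 probes for chaperones, endoplasmic reticulum (ER) folding and vesicle traffic rose, 5 fell and 5 were not called (medians 1.16, 1.26 and 1.13). P4HB, the protein disulfide isomerase of the ER lumen, stood at 6.87, 7.82 and 7.79 on control arrays and 9.20, 9.41 and 9.95 on high arrays (change 2.02, SE 0.30, adjusted p = 0.00963), against 1.54 at low and 1.73 at medium. SEC61B, a subunit of the channel through which proteins enter the ER, went from 1.28, 1.70 and 1.80 to 3.26, 3.47 and 3.68 (change 1.88, SE 0.20, adjusted p = 0.00338). XBP1, a transcription factor of the unfolded protein response, went from -0.16, -0.29 and 1.13 to 2.13, 2.38 and 2.51 (change 2.11, SE 0.33, adjusted p = 0.012). Its control replicate 3 stood more than 1 log2 unit above the other control arrays, and the call ended without high replicate 2 or 3.

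ERN1, the ER membrane sensor whose nuclease splices XBP1 messenger RNA, moved the other way, from -0.19, 0.40 and 0.01 to -1.81, -2.21 and -1.62 (change -1.96, SE 0.23, adjusted p = 0.00377), and remained called with any 1 array left out. CREB3L3, a liver transcription factor released from the ER membrane, fell on both probes of that symbol (-0.98 and -1.43), while the CREB3L3B probe, with the same description, rose by 1.49 (adjusted p = 0.0222). SEC24D, a coat protein of ER vesicles, fell by 0.95 and TXNDC4, an ER thioredoxin, by 0.73. Of 2 probes with the symbol SEC23A, 1 rose by 1.20 (adjusted p = 0.0202), and the other, described as SEC23 homolog B, was not called (0.48). PDIA4 (1.13, adjusted p = 0.0525), SERPINH1 (-0.59), ST13 (-0.73) and SEC22A (-0.39) were not called.

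Cytosolic ribosomal proteins were the only list whose median at high was above that at medium. Some other lists had a median at high above that at low, such as oxidative phosphorylation (1.29 against 1.26) and sugar metabolism (1.21 against 1.17). Of 11 cytosolic ribosomal protein probes, 9 rose, none fell and 2 were not called, with medians of 0.80 at low, 0.96 at medium and 1.05 at high. Only 4 of the 11 changed less at high than at medium, against 658 of all 807 named probes. This difference between lists was not tested. RPLP0, of the ribosomal stalk, went from 2.24, 3.01 and 3.06 to 5.04, 5.11 and 5.39 (change 2.41, SE 0.24, adjusted p = 0.00241). RPS3A rose by 1.71 on each of 2 probes (adjusted p = 0.00221 and 0.00338), and all 3 calls remained with any 1 array left out. RPS19 was not called (-0.87, adjusted p = 0.0595).

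Translation factors had 7 of 13 probes higher and 6 not called (medians 0.72, 0.90 and 0.79), and all 13 changed less at high than at medium. The elongation factor EEF1AS, which brings aminoacyl transfer RNA to the ribosome, went from 1.41, 1.45 and 2.28 to 3.77, 4.17 and 4.60 (change 2.47, SE 0.28, adjusted p = 0.00338). EIF4E3 rose on both probes (1.26 and 1.20). NMD3, which carries the large ribosomal subunit out of the nucleus, was not well above background on any control array (-4.16, -4.36 and -3.16) and was on every high array (-0.37, 0.71 and 0.34), at least 6.93-fold higher (adjusted p = 0.00221). NP, purine nucleoside phosphorylase, was of the same kind, at -4.67, -3.14 and -4.30 against 0.64, 0.00 and 0.34, at least 7.44-fold higher (adjusted p = 0.00517). Both were called at all 3 doses and with any 1 array left out.

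RNA polymerase II and excision repair genes had 15 of 19 probes higher, 1 lower and 3 not called (medians 1.12, 1.25 and 1.02). MED10, a subunit of the Mediator complex that links activators to the polymerase, rose on 3 probes by 1.61, 1.55 and 1.39 (adjusted p = 0.013, 0.0084 and 0.0197). GTF2A2, counted among the 15, was not well above background on any control or high array. MED13, of the Mediator kinase module, fell by 0.72 (adjusted p = 0.0479), a call that ended when any 1 array was left out. RAD23B (-0.92), which recognises damaged DNA and carries ubiquitinated proteins to the proteasome, and 1 of the 2 TCEB2 probes (0.65) were among those not called, and the other TCEB2 probe rose by 1.18 (adjusted p = 0.0195).

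Ubiquitin, SUMO and proteasome genes moved both ways. Of 33 probes, 15 rose, 5 fell and 13 were not called, with medians of 0.58, 0.63 and 0.61. NEDD8, the modifier that activates cullin ligases, went from 1.83, 2.09 and 2.35 to 3.02, 3.28 and 3.53 (change 1.19, SE 0.19, adjusted p = 0.0125). CDC26, counted among the 15, was not well above background on any control or high array. The 5 that fell were UBE2D2 (-1.02), UBR2 (-0.84), 1 of the UBR4 probes (-1.03), RNF13 (-0.70) and a TRIM50-like ligase (-0.88). Of the 12 fits that left out 1 array, 11 ended the RNF13 call and 8 that of UBR2. The calls of UBE2D2 and the TRIM50-like ligase ended in 4 each, and that of UBR4 in 1. The F-box proteins, which choose substrates for cullin ligases, and the ubiquitin-specific proteases, which remove ubiquitin, were singled out after their values were seen. Of their 11 probes, 2 rose at high and 9 were not called, and of the 10 called at both lower doses 8 were not called at high (medians -0.91, -1.28 and -0.52). Over all named probes called at both lower doses, 190 of 708 (26.8%) were not called at high, and the shares were not tested against each other.

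FBXO30 was called lower at both lower doses and not at high. It stood at -2.49, -1.96 and -2.36 on control arrays and -2.38, -3.52 and -2.45 on high arrays, so the groups overlapped (change -0.52, SE 0.52, adjusted p = 0.611). No low or medium array had it well above background, so the size of its change there, and its difference between doses, were not measured. DTX3L, an E3 ligase of the DNA damage and interferon responses, was called higher at low and medium and not at high, with 1 control array and no high array well above background, so no size is given for it. YTHDF1, MRPL33 and the FAM105B probe, also called higher at both lower doses, were not well above background on any control or high array, so no fold is given. Over all 190 named probes lost at high, 96 had risen and 94 had fallen at the lower doses. More named probes had risen than fallen at low (512 against 208), so these counts are not equal shares. The shares were not tested.

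Plasma protein genes had 11 of 21 probes higher, 3 lower and 7 not called (medians 1.00, 1.14 and 0.91). Coagulation factor IX, F9, which is made by hepatocytes and also marks them, went from 0.48, 0.77 and 1.43 to 2.92, 3.44 and 3.54 (change 2.41, SE 0.36, adjusted p = 0.00981) and was not called without high replicate 2. A second F9 probe, described as factor VII, rose by 1.19 (adjusted p = 0.0317). MASP1, a protease of the lectin pathway of complement, went from -0.55, -0.69 and 0.35 to 1.63, 2.27 and 2.20 (change 2.33, SE 0.34, adjusted p = 0.00867). PGLYRP2, which cleaves bacterial peptidoglycan, rose by 2.29 (adjusted p = 0.00403) and LRG1 by 2.13 (adjusted p = 0.00867). Among the 3 that fell were 1 of 2 probes for fibronectin FN1, an adhesive plasma and matrix protein (from 4.78, 5.16 and 4.78 to 3.98, 3.88 and 4.25, change -0.87, SE 0.20, adjusted p = 0.0427), and a mannose-binding lectin probe (-0.82, adjusted p = 0.0248). The FN1 call ended in 10 of the 12 fits that left out 1 array, and the second FN1 probe was not called (-0.34).

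Immune signalling had the lowest share of calls of the lists. Of 11 probes, 3 rose, 1 fell and 7 were not called at high, and the medians were 0.99, 0.90 and 0.44. Of the 10 called at both lower doses 6 were not called at high, against the 26.8% of all such named probes, a difference that was not tested. TNFAIP1 rose by 1.54 (adjusted p = 0.00931), the chemokine receptor CCR9 by 1.08 (adjusted p = 0.0125) and MS4A4A by 0.92 (adjusted p = 0.0174). The cytokine receptor kinase JAK1 fell by 0.76 (adjusted p = 0.0489), a call that ended without any 1 array other than control replicate 3.

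CD68, a lysosomal protein that marks macrophages, was called higher at low (1.27) and medium (1.15) and not at high. Its control levels were 2.19, 1.75 and 1.93 and its high levels 2.03, 1.94 and 2.35, which overlapped (change 0.15, SE 0.19, adjusted p = 0.686), while every low and medium array stood at 2.88 or above. The difference of high from low was -1.11 (limma unadjusted p = 9.9e-05, adjusted p = 0.583). A large loss at high was among the reasons for naming a gene, so these p-values describe CD68 and do not test its loss. The red blood cell marker HBB1, a beta globin, went from 2.85, 2.95 and 2.88 to 2.11, 1.99 and 1.96 (change -0.88, SE 0.15, adjusted p = 0.0134), against -1.30 at low and -1.65 at medium. All 3 high arrays lay between the control arrays and the low and medium arrays. In whole liver RNA, fewer cells of a type and less RNA per cell cannot be told apart, and the part of either marker in the other results was not tested. The muscle marker, a fast myotomal actin probe, rose by 0.89 (adjusted p = 0.0253).

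**Figure D5:**
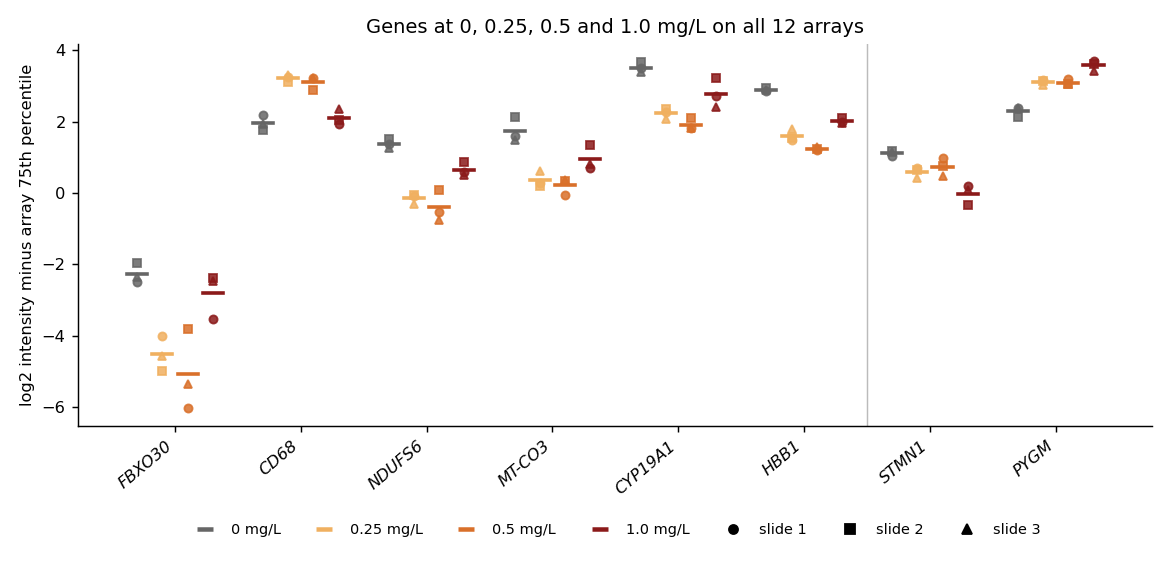
Levels of 8 genes (log2 intensity minus the 75th percentile of the array) on all 12 arrays, by uranium concentration, with bars at group means and symbols for slides. Left of the line stand genes with a smaller fitted change at 1.0 mg/L than at the lower concentrations. Right of it stand STMN1 and PYGM with a larger one. For CD68 the 1.0 mg/L arrays overlap the control arrays. FBXO30 was not well above background on any 0.25 or 0.5 mg/L array, so its difference between concentrations was not measured. The genes were chosen with these values known.

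Cell death genes had 4 of 11 probes higher, 2 lower and 5 not called (medians 0.80, 0.84 and 0.66), though all 11 were called at both lower doses. AIFM1, a mitochondrial flavoprotein that releases a caspase-independent death signal, went from -1.39, -1.17 and -0.70 to 0.44, 1.11 and 0.88 (change 1.90, SE 0.26, adjusted p = 0.00712). BAX, which permeabilises the outer mitochondrial membrane, went from 0.03, -0.08 and 0.01 to 0.63, 0.62 and 0.87 (change 0.72, SE 0.14, adjusted p = 0.0264). The inhibitors TMBIM4 (0.90) and MCL1 (0.69 on 1 of 2 probes) also rose. ACIN1, which condenses chromatin in dying cells, fell by 0.92 and FAF1, a Fas-binding factor, by 0.97. The second MCL1 probe (0.61), BOKA (0.65), AVEN (0.73), BLCAP (0.64) and TMBIM6 (0.66) were not called. Of the 6 calls, that of AIFM1 remained with any 1 array left out, and the other 5 ended without high replicate 2 or 3 among others.

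Membrane skeleton and matrix genes had 8 of 17 probes higher, 3 lower and 6 not called (medians 0.86, 0.98 and 0.80). Perlecan, HSPG2, a heparan sulfate proteoglycan of basement membranes, rose on both probes. The larger change went from 4.82, 4.38 and 5.13 to 6.54, 6.98 and 6.67 (change 1.95, SE 0.22, adjusted p = 0.00338), against 1.48 at low and 1.55 at medium, and the other was 1.73 (adjusted p = 0.0125). COL18A1, another basement membrane component, fell from 2.18, 2.18 and 1.61 to 0.94, 0.63 and 0.65 (change -1.25, SE 0.22, adjusted p = 0.0159). A probe described as an erythrocyte band protein-like gene changed by -1.98 (SE 0.29, adjusted p = 0.00867) and the adducin ADD3, of the spectrin skeleton, by -0.81 (adjusted p = 0.0475), while the second ADD3 probe was not called (-0.84, adjusted p = 0.0694). The ADD3 call ended in 11 of the 12 fits that left out 1 array.

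Of the 119 probes called at high alone, 5 had names. Stathmin STMN1, which destabilises microtubules, went from 1.04, 1.18 and 1.15 to -0.34, 0.19 and 0.09 (change -1.14, SE 0.20, adjusted p = 0.0148), against -0.54 at low and -0.39 at medium. The high arrays lay below every low array (0.41 to 0.70) and every medium array (0.48 to 0.98), and the difference from medium was -0.76 (limma unadjusted p = 0.00269, adjusted p = 0.617). The call at high alone was the reason for naming STMN1, so these differences between doses are descriptions. STMN1 remained called with any 1 array left out. The others included the carrier SLC25A36 described above, HEATR3 (0.73, adjusted p = 0.0475) and the heparan sulfate sulfotransferase HS3ST1 (0.64, adjusted p = 0.0339). Each of these 3 changed in the same direction at both lower doses (sizes 0.46 to 0.61) and lost its call in at least 10 of the 12 fits that left out 1 array. Unlike these, XYLT2, which starts heparan sulfate chains, and SPATS2 were called lower at all 3 doses. XYLT2 was well above background on all 3 control arrays and on no high array, at least 2.58-fold lower (adjusted p = 0.00981), and SPATS2 was at least 2.90-fold lower (adjusted p = 0.00847).

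Among called probes, the 10 with the largest fitted decreases had no gene name. CUST_51034 went from 1.39, 0.82 and 0.90 to -2.46, -1.67 and -2.71 (change -3.32, SE 0.58, adjusted p = 0.0161), with -0.46 at low and -2.28 at medium, and 1 of its high arrays was well above background. The other 9 shared 1 order of arrays, with control replicate 1 highest and control replicate 3 lowest of the controls and high replicate 2 lowest of all 6. CUST_42135, the largest of them, stood at 4.69, 3.01 and 1.56 on control arrays and 0.83, -1.27 and 0.11 on high arrays (change -3.20, SE 0.73, adjusted p = 0.0414). Their control SDs were 0.91 to 1.57, against a median of 0.33 over all probes tested, and the gap between the groups was 0.62 to 1.30. They changed by a similar amount at low (-2.09 to -2.86) and medium (-2.56 to -3.15), and each lost its call in at least 4 of the 12 fits that left out 1 array.

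The 10 called probes with the largest fitted increases were 6 unnamed probes and the NP, NMD3, UGT1 and UGT2A1 probes above. Several had no control array well above background, so their order was not measured. CUST_1654 was well above background on every high array (-0.82, -0.25 and -0.98) and on no control array (-3.50, -3.62 and -4.33), at least 3.68-fold higher (adjusted p = 0.0164). CUST_2722 was at least 2.76-fold higher (adjusted p = 0.00864), but its spot on control replicate 3 was left out as a scanner outlier, and with that spot kept its change was -2.50. By origin of the probe sequence, of 6652 probes named after trout clusters 1.98% were called higher and 1.52% lower, of 2040 named after salmon clusters 3.14% and 0.882%, and of 20589 named after numbered assemblies 2.73% and 1.03%. These shares were not tested against each other.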

How the data were processed

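Liver RNA of 12 salmon samples, 3 per group, was measured on 1-colour Agilent arrays with 62976 spots, of which 1319 were controls. The deposited scanner files held processed signal as intensity, which the authors obtained with Agilent Feature Extraction 10.7 after background subtraction and detrending, and it replaced the signal of dim spots by a surrogate. A table deposited with the arrays held log2 values that the authors had normalised and reduced to 40267 probes, and it was used as an alternative. Its values were centred on each probe (array medians -0.0486 to 0.0615), and how arrays were scaled is not given in the sources used here. Per array, spots that Feature Extraction flagged as outliers were removed, the signal was set to log2, the array's own 75th percentile was subtracted, and repeated spots were averaged. A probe was tested if well above background on all 3 arrays of at least 1 group and if at least 2 arrays of each group were left. limma 3.58.1 in R 4.3.3 was fitted to all 12 arrays by group, the samples of the methods' own one-way model, with two-sided moderated tests and Benjamini-Hochberg adjustment over the 29456 probes. The code was tested on simulated data first. A group with no array well above background was set to the lowest well-above-background signal (or the probe's own signal if higher) and the fold is given as a lower limit. The adjusted p printed beside such a limit is that of the limma fit on the values as measured, and the limit itself was not tested.

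The scanner files named no genes. Names were taken from the study's own list of changed probes, tied to probes by matching its listed changes to those of the value table within a relative tolerance of 5e-06, which settled 1973 of 1995 entries. The authors' comparison columns were used for this match only and none is printed. The members, gene lists and tests were chosen with earlier results of these data known. Genes named in the text were, by list, up to 4 called probes with the largest change and members needed for counts of 5 or fewer, then the 10 largest increases and decreases, up to 8 named probes called at high alone, up to 8 lost at high, and up to 5 with the largest excess at high. Other genes were named after their values were seen, to fill out a list. Several genes that the rule would name are not reported here.

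Replicate numbers were not taken as pairs, since deviations of same-numbered arrays correlated by 0.04 on average, the lowest being -0.27. Arrays of 1 slide correlated by 0.23 and others by -0.12, and slide was tested as a block. Alternatives were quantile normalisation, spike-in scaling (7 of 10 spike-in probes), a percentile over detected probes, normexp with offset 50 on the median signal (the mean signal was not used here), other filters, other tests, 2-group fits and each array left out. Figures were drawn with matplotlib 3.10.9. Precision is limited by 3 arrays per group.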

Additional observations from a re-analysis of the deposited data

How the results depend on the processing

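Of 158 probes named by rule and reported here, 117 were called at high against control, and 47 of these kept the call in each of the 12 fits that left out 1 array. Leaving out high replicate 2 ended 68 of the 117 calls, high replicate 3 ended 60, control replicate 1 ended 47, control replicate 2 ended 45 and control replicate 3 ended 4. With slide as a block, CUST_1866 was the only called named probe to lose its call (adjusted p = 0.0516). Over 4223 pairs of named probe and alternative, 3471 kept direction and side of the threshold, 631 kept direction and lost the call, 110 gained one and 11 changed sign.

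The count of 1093 at high against control became 2036 with slide as a block, 351 without the filter on dim probes, 1 with only the control and high arrays, 678 with the authors' value table and 7014 at an adjusted p below 0.5, and ran from 162 to 1780 with 1 array left out. The count of 794 at all 3 doses became 1496, 267, 0, 498 and 4285 under the same settings, and ran from 146 (without high replicate 2) to 1344 (without control replicate 3). It was 302 and 354 without control replicates 1 and 2, 399, 465 and 368 without the low replicates, 504 without medium replicate 2 or 3 and 194 without high replicate 3. Quantile normalisation gave 1111 probes, 996 of them shared, normexp 980 with 518 shared, and the spike-ins 808 with 683 shared. A fit with the replicate number as a block called 652 probes at high and 524 at all 3 doses, and 0 in the contrasts of high with medium and low; the numbers did not pair the arrays.

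High against medium gave 12876 probes with spike-in scaling, 12874 of them lower, where the median of all probes shifted by -0.79. It gave 6136 without the filter, of which 5939 were higher at high, the opposite direction. The count was 125 with the methods' one-way test, 110 with that test on the authors' value table (added after the data were seen) and 22 at an adjusted p below 0.5. High against low gave 4 in the fit of those 2 groups, 60 and 71 by the methods' test on either set of values, and 0 to 6 with 1 array left out, the 6 without medium replicate 2. The cause was not tested.

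Signs changed in probes near or below background. With normexp the change was -0.0405 for CDC26, -0.0149 for CUST_50615, -0.14 for MRPL33 and -0.00993 for YTHDF1. MRPL33 also changed by -0.00832 with the percentile over detected probes, and with 1 array left out from -0.11 (without control replicate 3) to 0.20 (without control replicate 2). CUST_37322 (FAM105B) changed by 0.11 with the spike-ins. CUST_2722 changed by -2.50 with outlier spots kept and by -2.09 in the authors' value table, with either test.

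Signal over background limits part of these results: 136 of the 1093 called probes had no control array well above background and 83 no high array, and 745 were well above it on all 6. Values near background have no firm order. With 3 arrays a group, an exact permutation test of 1 probe could not go below a p of 0.1, so calls rest on a spread shared over 4 groups.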
